A study of Mus musculus with 6 samples.

Results

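The genes described here encode the TOM and TIM machinery, which carries proteins made in the cytosol into mitochondria. They were taken by name, as every protein-coding entry of the deposited table whose symbol begins with Timm or Tomm, which gave 26 of 54532 gene entries. A symbol is not a complex. Of the 26, 2 stand apart by role: Tomm34 encodes a cytosolic cochaperone, and Timmdc1 an assembly factor of respiratory complex I. Tomm20l was assigned to none of the roles used below. Of the 26 genes, 23 had a mean of at least 1 FPKM (fragments scaled to gene length and library total) over all libraries and were tested. Tomm6, Timm8a2 and Tomm20l did not.

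RAW264.7 cells, a macrophage line made from a mouse tumour induced by a virus, were grown for 3 d in each of 2 settings. The control, Gel/S, is GelMA (gelatin carrying methacryloyl groups) kept static. The other, C/D, is GelMA with PEDOT:PSS, a conducting polymer blend, and PLLA/PDA, kept dynamic by low-frequency ultrasound of 48 kHz for 5 min. Material and ultrasound changed together, both groups share 1 cell line with no genetic change named in the labels, and the labels do not say that the 3 libraries of a group are separate cultures, so p-values measure only the spread between these libraries. The table names its columns GEL and US, and US was taken to mean ultrasound, which only C/D received; every direction below rests on that reading.

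Most mitochondrial proteins are encoded in the nucleus and must cross 1 or both mitochondrial membranes. Receptors of the TOM complex bind them at the outer membrane and pass them to the Tom40 channel, which small TOM subunits hold together. From there, proteins with a cleavable presequence go to the TIM23 channel and its import motor, while carriers of the inner membrane are escorted through the space between the membranes by small TIM chaperones to the TIM22 channel. In macrophages this route supplies the respiratory chain, whose activity shifts with the inflammatory state of the cell.

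The small TIM chaperones were the role in which members differed most from each other, so coding sequences of 3 of them are shown, read from GENCODE M21 transcripts (GRCm38). Each is 5′ to 3′ without the stop codon, and capitals mark the cysteine codons of its pair of CX3C motifs (a cysteine, 3 other residues, a cysteine), which form the disulfide bonds of the folded hairpin. All 7 small TIM genes in the set, including the untested Timm8a2, held exactly 2 such motifs.

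Timm8b, 83 codons, motifs from codons 36 and 55: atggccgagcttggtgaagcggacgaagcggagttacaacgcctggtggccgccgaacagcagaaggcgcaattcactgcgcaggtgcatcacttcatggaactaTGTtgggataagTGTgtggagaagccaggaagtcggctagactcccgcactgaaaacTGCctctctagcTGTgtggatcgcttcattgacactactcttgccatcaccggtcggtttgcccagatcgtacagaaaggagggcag

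Timm8a1, 97 codons, motifs from codons 43 and 62: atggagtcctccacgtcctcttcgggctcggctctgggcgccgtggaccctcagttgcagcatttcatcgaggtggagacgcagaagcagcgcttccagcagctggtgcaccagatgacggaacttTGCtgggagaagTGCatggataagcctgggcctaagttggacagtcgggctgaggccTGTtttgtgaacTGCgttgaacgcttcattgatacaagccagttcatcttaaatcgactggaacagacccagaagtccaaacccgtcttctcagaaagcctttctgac

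Timm13, 95 codons, motifs from codons 46 and 65: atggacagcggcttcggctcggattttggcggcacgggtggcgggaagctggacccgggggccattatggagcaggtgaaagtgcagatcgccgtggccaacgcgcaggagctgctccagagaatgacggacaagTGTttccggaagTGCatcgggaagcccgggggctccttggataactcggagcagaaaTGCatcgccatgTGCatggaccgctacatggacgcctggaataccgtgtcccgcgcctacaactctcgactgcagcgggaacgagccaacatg

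Timm8b and Timm8a1 are alternative partners of Timm13 in the hexamers that guard hydrophobic proteins between the membranes. Their coding sequences were identical at 51.5% of 291 aligned positions, with no identical run longer than 11 bases. Timm8a1 and the barely detected Timm8a2 shared 77.3% of 291 positions, with a longest run of 20 bases.

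Among macrophages on the stimulated conductive gel, mRNA of 2 import genes rose and that of 3 fell. Timm8b, a small TIM chaperone, rose 1.62-fold and Tomm7, a small TOM subunit that governs how the outer membrane complex assembles, rose 1.47-fold. Timm8a1, the counterpart of Timm8b, fell to 0.668 of its control level, Timm23, the channel of the inner membrane for presequence proteins, to 0.724, and Timm50, the receptor of that channel, to 0.842. The other 18 tested genes did not pass the test. The called share was 5 of 23 genes (21.7%), beside that of all 11708 tested genes, of which 27.0% were called (13.1% higher and 13.9% lower; edgeR quasi-likelihood test, adjusted p under 0.05).

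By levels alone, the libraries of the groups did not overlap for 11 of 23 genes, 4 higher and 7 lower in C/D, or 47.8% against 46.2% of all tested genes (19.1% higher and 27.1% lower). The median log2 fold change of the 23 genes was 0.03, against 0.01 for all tested genes. Before adjustment, 10 of the 23 had a p under 0.05, as had 41.0% of all tested genes. A fitted log2 fold change above 0 was found for 14 of the 23 (50.8% of all tested genes), and for 7 of 23 with limma on TPM, a scaling that moved the median of all tested genes to −0.12. The count of 2 risen genes became 5 when Gel/S 2 was left out and 1 when C/D 1 was. Of all tested genes, 1532 rose with all libraries, 1989 without Gel/S 2 and 910 without C/D 1. The count of 3 fallen genes became 5 when Gel/S 1 was left out, while that of all tested genes went from 1631 to 1571. In the authors' deposited table, 2 of the tested genes pass an adjusted p of 0.05 as higher with C/D and 4 as lower, the fourth being Tomm70a (log2 −0.32, adjusted p = 0.0206). The share of all genes that passes in the authors' comparison was not counted, so these counts have no background beside them.

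**Figure D1:**
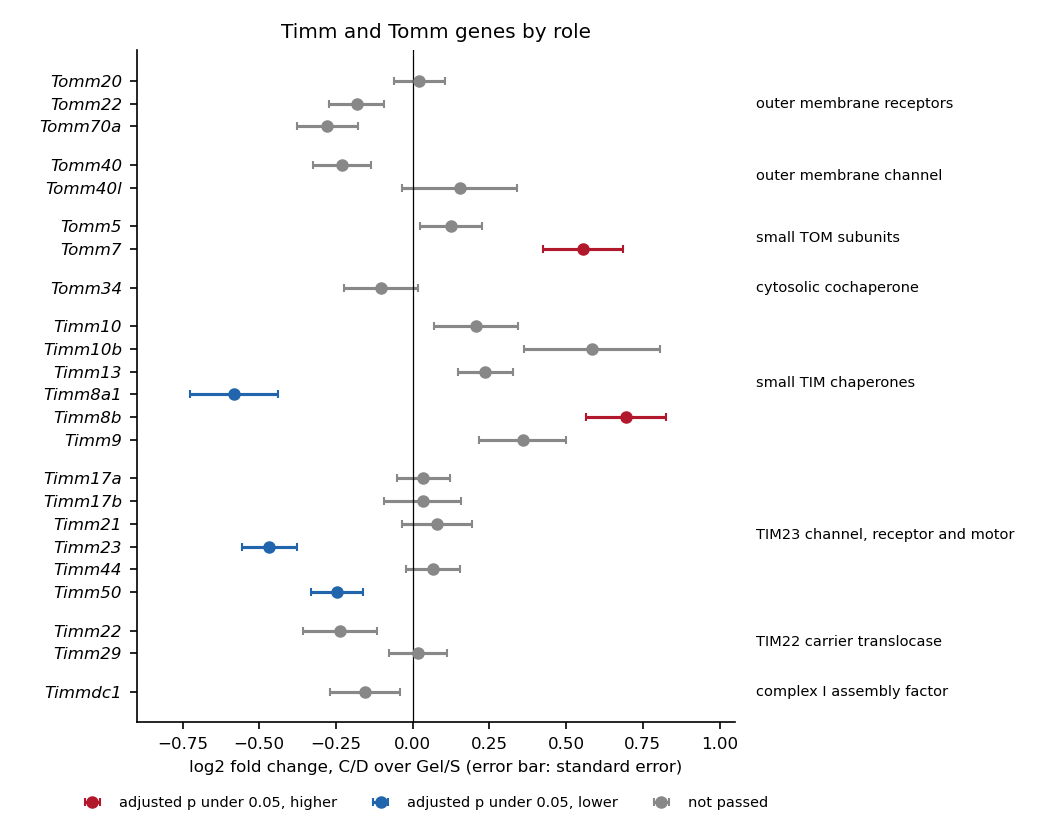
Log2 fold change of each tested gene (C/D over Gel/S, horizontal axis, error bar: standard error of the edgeR fit), grouped by role; red and blue points passed an adjusted p of 0.05. The small TIM chaperones span the range from −0.58 (Timm8a1) to 0.69 (Timm8b).

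Total counts ran from 12818831 (C/D 1) to 16525699 (Gel/S 2), and the tested import genes had 73 to 2957 counts in a library. Gel/S 1 stood farthest out on the first principal component (−34.6, with Gel/S 2 and 3 at −11.3 and −17.7 and C/D at 18.2 to 25.6). Transcripts of the mitochondrial genome took 5.59% of the counts in Gel/S 1, 7.41% to 9.02% in the other Gel/S libraries and 9.17% to 10.4% in C/D, and whether that share bears on the import genes was not tested. All 10 macrophage markers were detected at 1 FPKM or more in every library, summing to 15340 to 15430 FPKM in Gel/S and 13050 to 13190 in C/D. Most of that sum was Lyz2 (9627 to 10750 and 7922 to 8085 FPKM). Csf1r and Cd14 were also lower in every C/D library, while Tyrobp and Fcgr3 were higher in every one and the other 5 overlapped. Markers of other cells stayed near 0: the highest of 19 markers of stromal, T, B, epithelial and endothelial cells was Pdgfrb at 0.914 FPKM, and 9 of them (Col1a2, Col3a1, Dcn, Lum, Ms4a1, Epcam, Krt18, Cdh1 and Kdr) were at 0 in every library. In bulk RNA, fewer cells of a kind and less RNA per cell cannot be told apart.

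Levels across the family, in FPKM averaged over all 6 libraries, ranged widely. The highest were Timm8b (159.8 FPKM), Tomm7 (121.4), Tomm5 (80.4) and Timm13 (76.2), all with coding sequences of 51 to 95 codons. Larger subunits such as Tomm70a (14.8 FPKM, listed gene length 9777 bases) and Timm44 (14.6 FPKM, 3664 bases) lay lower. By counts Tomm70a was not low, and its 2957 in Gel/S 1 was the highest count of a tested import gene in any library. Among small chaperones, Timm9 at 12.2 FPKM and Timm10b at 2.46 FPKM were low on this scale, which divides by listed gene lengths of 4282 and 3582 bases (518 for Timm8b). The 3 untested genes were far below: Tomm6 averaged 0.268 FPKM, Timm8a2 0.0630 FPKM and Tomm20l 0.0154 FPKM.

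The outer membrane receptors recognise incoming proteins. None of the 3 passed the test. Tomm70a, the receptor for carriers and other proteins with internal signals, stood at 18.9, 14.8 and 15.7 FPKM in Gel/S 1 to 3 and at 13.2, 12.5 and 13.8 FPKM in C/D 1 to 3. Every C/D library was below every Gel/S library, and the log2 fold change came to −0.28 (SE 0.0986, edgeR adjusted p = 0.0547). Gel/S 1 was the highest, and without it the value was −0.18 (adjusted p = 0.1065). The gene gained a call in 5 of 16 other settings: DESeq2 (0.0429), no filter (0.0132), filterByExpr (0.0409), the length trend removed (0.0403) and Gel/S 2 left out (0.0146). Tomm22, the receptor that also docks Tom20, had 34.2, 38.5 and 38.6 FPKM in Gel/S and 31.5, 31.5 and 32.2 FPKM in C/D. Its groups did not overlap either, and its log2 fold change was −0.18 (SE 0.0889, adjusted p = 0.142). It gained a call with limma on TPM (−0.31, adjusted p = 0.0280), with the length trend removed (−0.29, 0.01405) and without Gel/S 1 (−0.25, 0.0302). Tomm20, the presequence receptor, was at 22.5 ± 1.22 FPKM in Gel/S and 22.2 ± 0.473 in C/D (SD, n = 3 libraries each, as for every ± below), with overlapping libraries and a fitted log2 change of 0.02 (SE 0.0822). A processed pseudogene, Gm14494, matches 435 bases of the Tomm20 transcript at 99.5% identity and took 208 to 258 counts per library, beside 1383 to 1887 for Tomm20.

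Tomm40 encodes the channel of the outer membrane. It stood at 16.0, 19.6 and 17.5 FPKM in Gel/S 1 to 3 and at 14.3, 14.8 and 14.9 FPKM in C/D 1 to 3. The groups did not overlap, and the log2 fold change was −0.23 (SE 0.0947, edgeR adjusted p = 0.0876). A call was gained without Gel/S 1 (log2 fold change −0.31, adjusted p = 0.00986) and with limma on TPM (−0.35, 0.0252), while without Gel/S 2 the value was −0.15 (0.236). Tomm40l, a paralog identical to Tomm40 at 59.0% of aligned coding positions, was close to the filter, with 1.17 ± 0.246 FPKM in Gel/S and 1.27 ± 0.1297 FPKM in C/D and 78 to 119 counts per library. Of its exonic bases, 64.3% are shared with Nr1i3 on the opposite strand, which had at most 2 counts in a library.

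The small TOM subunits surround the channel. Tomm7 had 79.8, 115.8 and 104.7 FPKM in Gel/S 1 to 3 and 153.8, 131.6 and 143.1 FPKM in C/D 1 to 3. Gel/S 1 was the lowest and C/D 1 the highest, and the groups did not overlap. Tomm7 lies on chromosome 5 (23838944 to 23844161, GRCm38, minus strand). Its log2 fold change was 0.55 (SE 0.1302, edgeR adjusted p = 0.00976), and the call was lost without C/D 1 (log2 fold change 0.49, adjusted p = 0.0524). Tomm5, another small subunit, was at 78.1 ± 8.68 FPKM in Gel/S and 82.7 ± 4.02 in C/D, with overlapping libraries and a fitted log2 change of 0.13 (SE 0.101, adjusted p = 0.373), a value that was −0.09 after a trend with gene length was removed. Tomm6 had 1, 4 and 3 counts in Gel/S and 3, 11 and 6 in C/D. Of the 1131 exonic bases of Tomm6, 859 are shared with Gm21981, a gene on the same strand that had at most 2 counts, and whether the shared bases bear on its counts was not tested. Tomm34, the cytosolic cochaperone, was at 11.8 ± 1.66 FPKM in Gel/S and 10.7 ± 0.833 FPKM in C/D (log2 fold change −0.10, SE 0.1199).

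**Figure D2:**
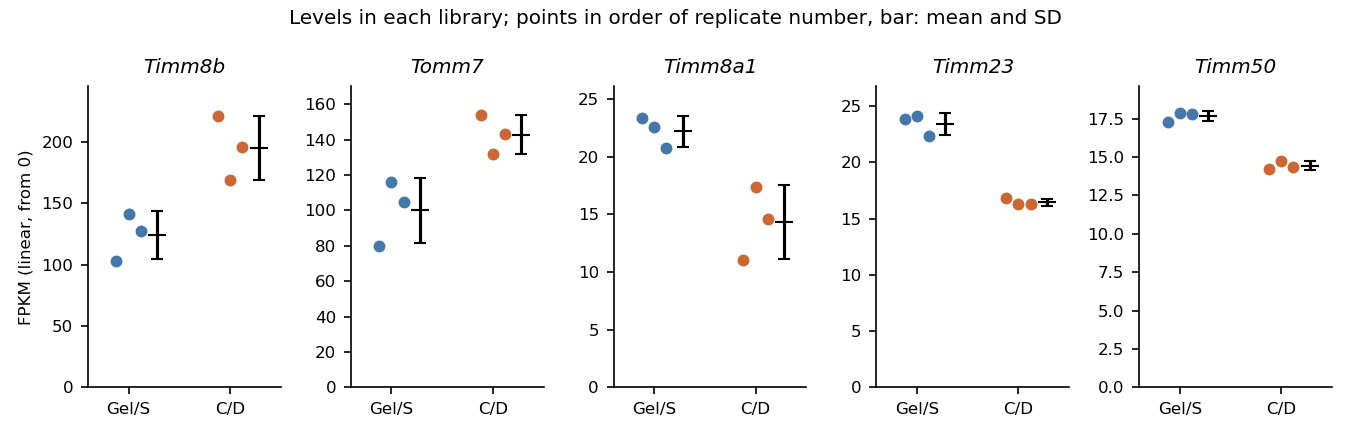
FPKM of the 5 genes that passed the test in each library (points, in order of replicate number; vertical axes linear from 0), with the mean and SD of each group of 3. Timm8b and Tomm7 lay higher in every C/D library, and Timm8a1, Timm23 and Timm50 lower; C/D 1 was the extreme library for Timm8b (221 FPKM) and Timm8a1 (11.04 FPKM).

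The small TIM chaperones work as hexamers in the intermembrane space, Timm9 with Timm10 and Timm8 proteins with Timm13. Of 6 tested, 1 rose, 1 fell and 4 did not pass, or 33.3% called beside 27.0% of all tested genes. The median of their log2 fold changes was 0.30, and that of all 436 tested genes of up to 120 codons was 0.27. Timm8b (chromosome 9, 50603910 to 50605320, GRCm38, plus strand) stood at 103.4, 141.6 and 127.6 FPKM in Gel/S 1 to 3 and at 221, 169 and 196 FPKM in C/D 1 to 3. Every C/D library was above every Gel/S library, with Gel/S 1 lowest and C/D 1 highest. The log2 fold change was 0.69 (SE 0.131, edgeR adjusted p = 0.00340), and it was 0.43 (adjusted p = 0.00683) once a trend with gene length was removed. Of its 518 exonic bases, 81 overlap Nkapd1 on the opposite strand, which had 408 to 698 counts per library, and whether counting used strand was not given in the sources used here.

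Timm8a1 (chromosome X, 134537256 to 134541865, minus strand) moved the other way. It stood at 23.3, 22.6 and 20.7 FPKM in Gel/S 1 to 3 and at 11.04, 17.4 and 14.6 FPKM in C/D 1 to 3. All C/D libraries were below all Gel/S libraries, and C/D 1 was the lowest. The log2 fold change was −0.58 (SE 0.143, edgeR adjusted p = 0.0120), between −0.43 without C/D 1 and −0.74 without C/D 2. A transcribed pseudogene, Gm9797, matches 612 bases of its transcript at 100% identity and had 2 to 6 counts per library, and adding those counts left the log2 fold change at −0.57.

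Because Timm8b rose and Timm8a1 fell, their proportion in a library differed between the groups. The ratio of Timm8b to Timm8a1 FPKM was 4.43, 6.28 and 6.17 in Gel/S 1 to 3 and 20.1, 9.72 and 13.4 in C/D 1 to 3, or 5.62 ± 1.03 against 14.4 ± 5.24. This ratio was chosen after its parts had been seen and is given without a test. Their summed level was 146.4 ± 18.7 FPKM in Gel/S and 209.7 ± 23.1 FPKM in C/D. Timm13, the shared partner, had 63.9, 74.7 and 74.6 FPKM in Gel/S and 83.5, 81.4 and 79.2 FPKM in C/D. Its groups did not overlap, and the fitted log2 fold change came to 0.24 (SE 0.0911, edgeR adjusted p = 0.0719). That value was 0.11 with limma on TPM, 0.09 with the length trend removed, and 0.28 with a call (adjusted p = 0.0384) without Gel/S 2.

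Timm9 and Timm10, the partners that receive carriers from the outer membrane, did not pass. Timm9 was at 8.52, 13.4 and 10.8 FPKM in Gel/S 1 to 3 and at 14.1, 13.8 and 12.9 FPKM in C/D 1 to 3. Gel/S 2 lay among the C/D libraries, and the log2 fold change was 0.36 (SE 0.141, edgeR adjusted p = 0.0786). It was 0.20 (adjusted p = 0.139) without Gel/S 1 and 0.54 (0.00280) without Gel/S 2. A call was also gained with no filter (0.0292) and with the length trend removed (0.0402). Timm10 was at 31.7 ± 5.31 FPKM in Gel/S and 35.5 ± 3.77 FPKM in C/D. Its log2 fold change was 0.21 (SE 0.138), and it was −0.01 after the length trend was removed, 0.08 with limma on TPM, 0.08 without Gel/S 1 and 0.34 without Gel/S 2. The ratio of Timm10 to Timm9 overlapped between groups, 2.93 ± 0.166 and 2.62 ± 0.358. Timm10b, a chaperone bound to the TIM22 complex, had 1.27, 2.40 and 2.32 FPKM in Gel/S and 2.75, 2.67 and 3.32 FPKM in C/D (73 to 179 counts). Gel/S 1 was far below the rest, and the log2 fold change was 0.58 (SE 0.221, adjusted p = 0.0680). It was 0.34 (adjusted p = 0.142) without Gel/S 1 and 0.75 (0.0203) without Gel/S 2. A call was also gained with DESeq2 (0.0424), no filter (0.0114) and the length trend removed (0.0416). Of the 3582 exonic bases of Timm10b, 277 overlap Arfip2 on the opposite strand, which had 1032 to 1304 counts per library. Gm45799, a gene on the same strand, shares 376 exonic bases with Timm10b and had at most 4 counts in a library. Whether either overlap bears on the counts of Timm10b was not tested.

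**Figure D3:**
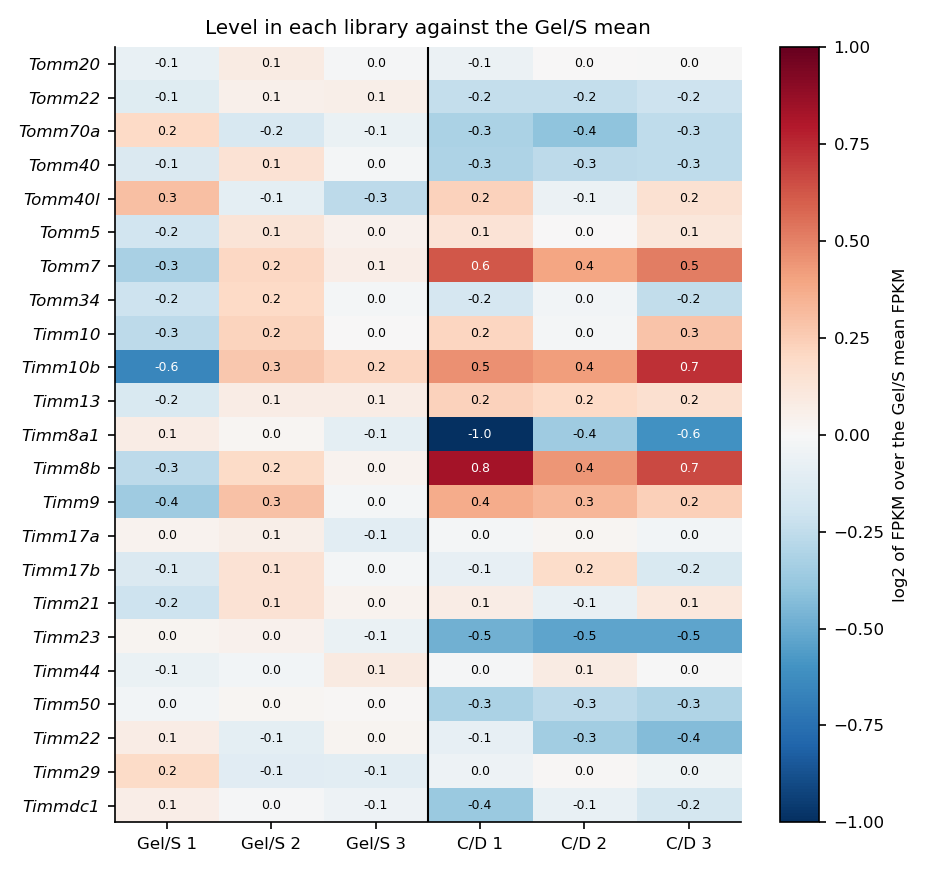
Level of every tested gene in each library as log2 of its FPKM over the Gel/S mean (colour and printed value), in the order of roles used in the text. Timm23, Timm50 and Tomm40 are lower in all C/D libraries, and Timm9 and Timm10b have their lowest value in Gel/S 1.

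The TIM23 complex moves presequence proteins into or across the inner membrane. Of its 6 genes named Timm, 2 fell and the other 4 did not pass, or 33.3% called beside 27.0% of all tested genes (13.9% lower). Genes of the channel and motor with other names are given further below, where Romo1 and Grpel2 rose and Hspa9 fell. Timm23, the channel subunit (chromosome 14, 32180162 to 32201898, minus strand), stood at 23.9, 24.1 and 22.3 FPKM in Gel/S 1 to 3 and at 16.8, 16.3 and 16.3 FPKM in C/D 1 to 3. The libraries of each group lay close together and the groups were well apart. The log2 fold change was −0.47 (SE 0.0894, edgeR adjusted p = 0.00368) and its call held in each of 16 other settings (−0.59 to −0.44, highest adjusted p = 0.0240). Timm23 has a near copy, the gene Gm10273, identical over 99.9% of 1121 aligned bases, and 5 pseudogenes over 95% identical. The copies found in the table had at most 12 counts each per library beside 390 to 694 for Timm23, and how reads matching several genes were counted was not given in the sources used here. Adding the counts of the copies gave −0.45 (adjusted p = 0.00466).

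Timm50, the receptor that hands presequences to the channel (chromosome 7, 28305516 to 28312072, minus strand), had 17.3, 17.9 and 17.8 FPKM in Gel/S 1 to 3 and 14.2, 14.8 and 14.3 FPKM in C/D 1 to 3. The groups were apart by more than their spread. The log2 fold change was −0.25 (SE 0.0846, edgeR adjusted p = 0.0481), close to the threshold. The call was lost in 8 of 16 other settings, among them DESeq2 (adjusted p = 0.0740) and leaving out Gel/S 2, Gel/S 3 or any C/D library in turn (0.0732 to 0.142).

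The remaining Timm genes of the TIM23 complex had fitted log2 fold changes between 0.03 and 0.08. Timm17a, which pairs with Timm23 in the channel, was at 5.65, 5.76 and 5.13 FPKM in Gel/S and 5.45, 5.59 and 5.42 FPKM in C/D (log2 fold change 0.03, SE 0.0877). Timm17b, its X-linked paralog with 68.0% identity over the aligned coding sequence, was at 9.67 ± 0.993 FPKM and 9.60 ± 1.21 FPKM (0.03, SE 0.125). Timm44, which anchors the import motor, was at 14.4 ± 0.813 and 14.7 ± 0.533 FPKM (0.07, SE 0.0875), and Timm21, which links the channel to the outer membrane and the respiratory chain, at 23.8 ± 2.898 and 24.4 ± 1.59 FPKM (0.08, SE 0.116). The libraries of the groups overlapped for all 4, and limma on TPM turned each of these values to between −0.10 and −0.05. The ratio of Timm23 to Timm17a was 4.22, 4.18 and 4.35 in Gel/S and 3.08, 2.92 and 3.00 in C/D, a description chosen with both levels known.

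Timm22, the channel for carriers, was at 7.92, 7.03 and 7.66 FPKM in Gel/S 1 to 3 and 7.13, 5.94 and 5.58 FPKM in C/D 1 to 3. C/D 1 lay within the Gel/S range, and the log2 fold change was −0.24 (SE 0.1202, edgeR adjusted p = 0.156). Timm29, which joins that channel to the outer membrane complex, was at 19.3 ± 2.41 and 18.9 ± 0.409 FPKM (0.02, SE 0.0949). Timmdc1, the complex I assembly factor, had 12.1, 11.4 and 11.1 FPKM in Gel/S and 8.92, 10.98 and 10.2 FPKM in C/D, without overlap, and the fitted log2 change was −0.16 (SE 0.114, adjusted p = 0.321). It was −0.08 without C/D 1, −0.29 with limma on TPM and −0.25 with the length trend removed.

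**Figure D4:**
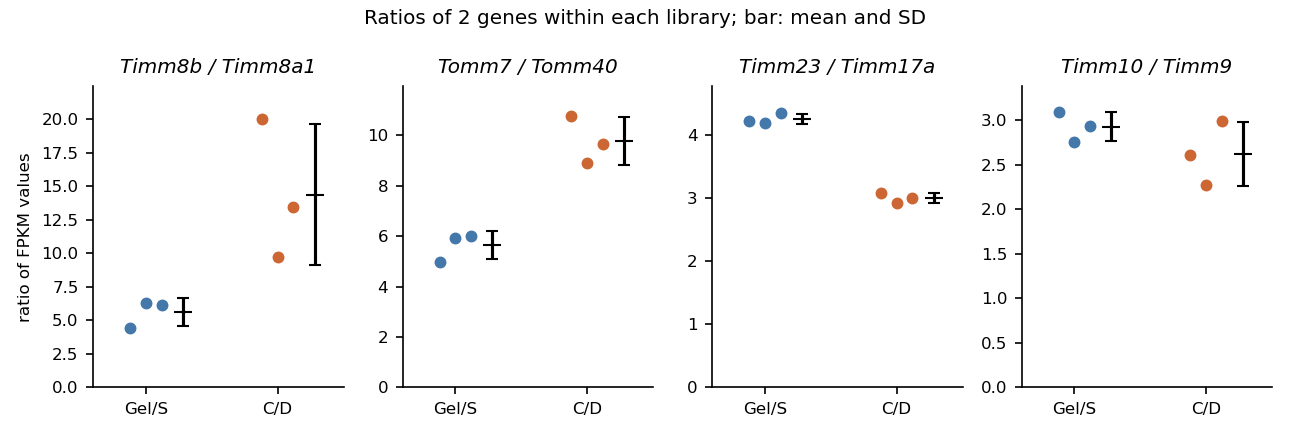
Ratio of FPKM values of 2 genes within each library (points; vertical axes linear from 0) with the mean and SD of each group of 3. Timm8b over Timm8a1 averaged 5.62 in Gel/S and 14.4 in C/D, Timm23 over Timm17a 4.25 and 3.00, while Timm10 over Timm9 overlapped between the groups.

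Short and long coding sequences had different medians, among import genes and among all genes; the difference was not tested. The 26 genes were divided by coding length in GENCODE M21, with bounds chosen after the values were known. Of 8 tested import genes of up to 120 codons, 2 rose and 1 fell, and the median log2 fold change was 0.30. Of all 436 tested genes of that size, 134 rose and 20 fell, with a median of 0.27. Of 8 import genes over 250 codons, none rose and 1 fell (Timm50), with a median of −0.13, while of 7739 such genes 841 rose and 1340 fell, with a median of −0.05. The 7 in between had a median of 0.02, and the 1724 genes of that size one of 0.06. Without Gel/S 1, the median of the 8 small import genes was 0.18 and that of all small genes 0.16. The 2 medians were 0.44 and 0.36 without Gel/S 2, and 0.24 and 0.14 with the trend with gene length removed.

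Summed over genes of up to 120 codons, import mRNA was 375, 493 and 453 FPKM in Gel/S 1 to 3 and 609, 526 and 572 FPKM in C/D 1 to 3. For longer genes the sums were 234, 247 and 238 FPKM in Gel/S and 212, 216 and 214 FPKM in C/D. Both sums were apart between the groups, in opposite directions, and neither was tested. Timm8b (means of 124.2 FPKM in Gel/S and 195.4 in C/D) and Tomm7 (100.1 and 142.8) differed most within the short sum. Of the 8 tested short genes, 4 lay higher in C/D without overlap and 1, Timm8a1, lower. Timm9, Timm10 and Tomm5 overlapped, so the short sum does not describe each short gene. Of all 436 tested genes of up to 120 codons, 166 lay higher in C/D without overlap and 42 lower. Among tested genes of every size, 46.2% did not overlap. As a share of all counts, the 26 genes together took 1246 ± 43.7 CPM in Gel/S and 1296 ± 23.4 CPM in C/D, with overlap between the groups.

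**Figure D5:**
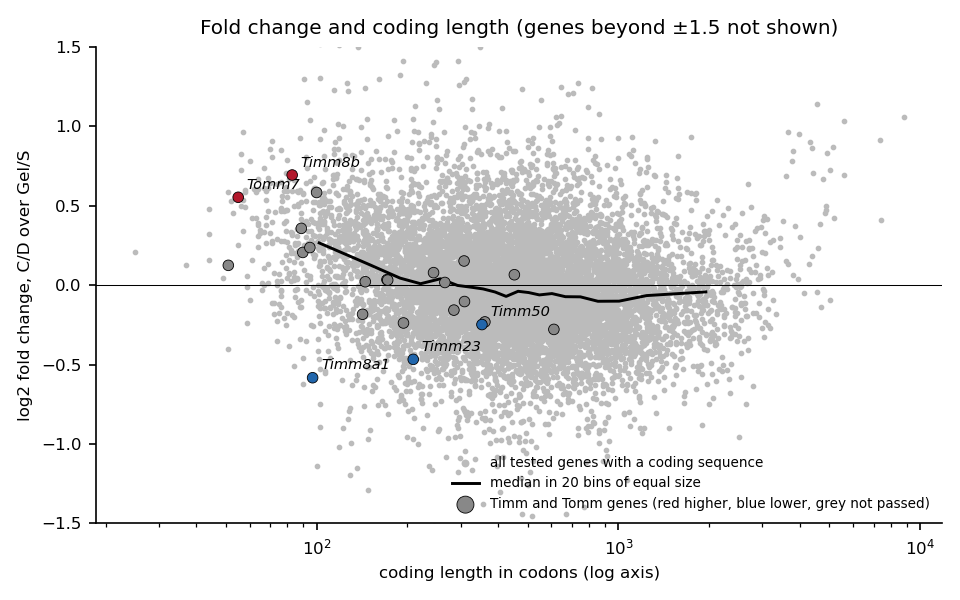
Log2 fold change (C/D over Gel/S, vertical axis) against coding length in codons (log axis) for all tested genes with a coding sequence (grey dots), their median in 20 bins of equal size (line) and the import genes (large points; red higher, blue lower, grey not passed). The line is highest for short genes, where 436 genes of up to 120 codons had a median of 0.27, and Timm8a1 at −0.58 lies below it.

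Other parts of the import route were followed with a list of 21 genes for outer membrane assembly, the import motor, processing and the intermembrane oxidation pathway. All 21 were tested, and 3 rose, 2 fell and 16 did not pass, or 23.8% called against 27.0% of all tested genes, with a median log2 fold change of 0.21. Romo1, a small protein of the TIM23 channel, had 57.7, 82.0 and 75.0 FPKM in Gel/S and 130.0, 105.6 and 105.7 FPKM in C/D (log2 fold change 0.71, SE 0.135, edgeR adjusted p = 0.00354). Its libraries did not overlap between groups. Mtx3, a metaxin of the outer membrane, rose from 3.37 ± 0.141 to 4.62 ± 0.729 FPKM (0.50, adjusted p = 0.0116), and Grpel2, a nucleotide exchange factor of the import motor, from 5.11 ± 0.134 to 6.45 ± 0.5997 FPKM (0.38, adjusted p = 0.0227).

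Hspa9, the Hsp70 that drives the motor, had 93.6, 58.6 and 75.7 FPKM in Gel/S 1 to 3 and 51.3, 48.8 and 53.8 FPKM in C/D 1 to 3 (log2 fold change −0.52, SE 0.136, edgeR adjusted p = 0.0161). Gel/S varied widely, and all C/D libraries lay below it. Samm50, which inserts barrel proteins into the outer membrane, fell from 15.0 ± 0.956 to 11.7 ± 0.677 FPKM (−0.31, adjusted p = 0.0208). Next by p were Gfer, the oxidase that recharges the disulfide relay (0.33, adjusted p = 0.0541), and Dnajc11 (−0.23, adjusted p = 0.0679), which did not pass. Romo1 kept its call in all 16 other settings. Mtx3 lost it in 3, Grpel2 in 5, Hspa9 in 6 and Samm50 in 3, with adjusted p up to 0.121, 0.173, 0.0733 and 0.106. The 3 rises became 9 when Gel/S 2 was left out and 1 when C/D 2 was. Of all tested genes, 1532 rose with all libraries, 1989 without Gel/S 2 and 928 without C/D 2. The 2 falls became 0 when Gel/S 3 or C/D 2 was left out, and 1 when C/D 1 or C/D 3 was.

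The genes lie on 16 chromosomes, with 2 of them on X. Timm9 and Tomm20l are neighbours on opposite strands of chromosome 12, sharing 49 exonic bases. Promoters, taken as 250 bases before to 50 after each start, were listed by RefSeq (GRCm38.p6) for 23 of the 26 genes in 25 entries. The ETS core CCGGAAG, searched on both strands as were all motifs, was in 11 of 25 (44.0%), against 8.86% of 32851 promoters and 19.49% of the 10467 promoters of tested genes. The GC box GGGCGG was in 12 of 25 (48.0%), against 35.66% and 63.19%. These entries belong to 10 genes with the ETS core and 11 with the GC box, since Tomm34 has 2 overlapping entries. The untested Timm8a2 is among those with the ETS core. The NRF1 core GCGCATGCG was in 1 (Timm13; 1.75% of all, 3.96% of tested), the YY1 core AAGATGGC in 1 (Timm50; 2.75% and 5.02%), and the CRE TGACGTCA in none (1.79% and 3.20%). Median GC content was 58.7% in these promoters, 52.7% in all and 60.7% in those of tested genes.

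Promoters are printed for the 4 genes past the test that have an entry, 5′ to 3′ on the gene's strand, with motif matches in capitals. No base of these 4 lies in matches of 2 motifs. The window of Timm8a1, placed by its RefSeq start, lies mostly within the gene as listed in the deposited table (134537256 to 134541865).

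Timm8b (rose), chr9:50603651-50603950, plus strand, 1 ETS core and 1 GC box: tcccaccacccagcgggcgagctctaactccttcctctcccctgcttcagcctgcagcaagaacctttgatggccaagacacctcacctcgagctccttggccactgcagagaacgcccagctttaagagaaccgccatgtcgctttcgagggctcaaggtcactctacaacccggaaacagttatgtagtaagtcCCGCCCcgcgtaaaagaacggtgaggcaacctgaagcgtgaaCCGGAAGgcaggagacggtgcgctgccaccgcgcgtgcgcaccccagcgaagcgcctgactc

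Timm8a1 (fell), chrX:134541621-134541920, minus strand, 3 GC boxes: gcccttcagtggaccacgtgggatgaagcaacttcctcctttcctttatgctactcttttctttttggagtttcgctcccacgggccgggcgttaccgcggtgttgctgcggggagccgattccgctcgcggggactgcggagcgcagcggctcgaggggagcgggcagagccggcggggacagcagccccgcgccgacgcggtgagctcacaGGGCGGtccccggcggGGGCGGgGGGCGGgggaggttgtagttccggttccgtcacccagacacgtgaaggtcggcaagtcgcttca

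Timm23 (fell), chr14:32201842-32202141, minus strand, 2 ETS cores: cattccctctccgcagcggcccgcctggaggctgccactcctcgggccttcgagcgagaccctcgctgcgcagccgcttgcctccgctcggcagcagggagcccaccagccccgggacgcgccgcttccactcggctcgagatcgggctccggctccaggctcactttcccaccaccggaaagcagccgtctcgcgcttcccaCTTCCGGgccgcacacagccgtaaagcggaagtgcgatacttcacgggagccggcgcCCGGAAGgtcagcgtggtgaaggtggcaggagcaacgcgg

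Timm50 (fell), chr7:28311997-28312296, minus strand, 1 YY1 core and 3 GC boxes: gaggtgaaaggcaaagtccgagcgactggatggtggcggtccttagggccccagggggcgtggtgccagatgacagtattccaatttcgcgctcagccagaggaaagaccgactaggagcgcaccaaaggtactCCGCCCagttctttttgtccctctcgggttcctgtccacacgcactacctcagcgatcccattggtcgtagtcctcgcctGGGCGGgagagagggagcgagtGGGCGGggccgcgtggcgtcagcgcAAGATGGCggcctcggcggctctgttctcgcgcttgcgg

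The ETS core was in the promoters of a gene that rose (Timm8b) and of one that fell (Timm23). The GC box was in those of Timm8b, Timm8a1 and Timm50. Only Timm8b among these 4 genes rose, so whether a motif goes with direction cannot be read from them and was not tested.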

How the data were processed

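The authors deposited 1 table for 6 libraries with raw counts per gene, FPKM values, and their own comparison, per the file headers. The deposited FPKM divide those counts by the listed gene length and a library total scaled by the authors. The deposited signal columns (group means of scaled counts), log2 fold changes (Gel/S over C/D, sign turned here) and p-values are the authors' own, from a test that no header names. The submitters' processing notes name the builds GRCm38 and mm10, and for aligner, counter and strandedness nothing was found (not given in the sources used here). No entry lacked a gene, 27 symbols turned into dates were restored by gene ID, and counts of 100 repeated symbols were summed. Genes with a mean of at least 1 FPKM (11708) were fitted with edgeR 4.0.16 (R 4.3.3, TMM factors, quasi-likelihood test, Benjamini-Hochberg over all of them, threshold 0.05), and standard errors were derived from the fold change and its F statistic. The fit was tested on simulated data. Alternatives used DESeq2 1.42.0, limma 3.58.1, other filters and scalings, a gene length trend, a replicate block and left-out libraries. Adding counts of near-identical copies (BLAST+ 2.17.0 on GENCODE M21, at least 95% identity over 200 bases) was chosen after seeing the data.

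Every Timm and Tomm gene is accounted for. Genes past the threshold, or without overlap between the groups, are given in every library, and of the other import genes those past the threshold and the next 2 by p. The members and lists were chosen with earlier results of these data known. No 2 libraries agreed within counting noise (chi-square per degree of freedom of 3.63 or more). Pairs within C/D had 3.63 to 11.1. Within Gel/S, Gel/S 2 had 10.4 with Gel/S 3 and 47.3 with Gel/S 1, and Gel/S 1 had 20.5 with Gel/S 3. Gel/S 2 had 26.4 to 33.5 with the C/D libraries.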

Additional observations from a re-analysis of the deposited data

How the results depend on the processing

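Each of the 23 genes was refitted in 16 other settings, 368 values in all: 309 kept direction and call, 9 lost the call, 18 gained one and 32 changed sign. The sign changes lie in 9 genes that had not passed, with sizes up to 0.11 and adjusted p of 0.317 or more. The cause was not tested for any change. Timm23, Timm8a1 and Timm8b kept direction and call in all 16. Tomm7 lost its call in 1 (without C/D 1) and Timm50 in 8.

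Counts of risen Timm and Tomm genes were 4 without a filter, 4 with the length trend removed, and 1 to 5 with a library left out. Counts of fallen ones were 5 with limma on TPM, 5 with the length trend removed, and 2 to 5 with a library left out (5 without Gel/S 1). Other import genes risen were 1 with limma on TPM and 1 to 9 with a library left out. Those fallen were 1 with limma on log2(FPKM + 1), log2(FPKM + 0.1) or TPM, and 0 to 3 with a library left out. Of all tested genes, limma called 1020 risen on log2(FPKM + 1), 1008 on log2(FPKM + 0.1) and 633 on TPM, and the share risen among calls went from 48.4% to 40.9%, 40.3% and 29.5%. With a library left out, 887 to 1989 rose and 876 to 2089 fell. Without a filter, 1740 of 23858 genes rose. With the length trend removed, 1665 rose and 1817 fell, and with limma on TPM 1510 fell.

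With limma on log2(FPKM + 1), log2 values that changed sign were Timm17a −0.0055, Timm17b −0.012, Timm29 −0.019, Tomm20 −0.018. With limma on log2(FPKM + 0.1), log2 values that changed sign were Timm17a −0.0062, Timm17b −0.013, Timm29 −0.020, Tomm20 −0.019. With limma on log2(TPM + 1), log2 values that changed sign were Timm17a −0.091, Timm17b −0.10, Timm21 −0.047, Timm29 −0.11, Timm44 −0.065, Tomm20 −0.11, Tomm5 −0.0021. With no filter, log2 values that changed sign were Timm17a −0.012, Timm17b −0.014, Timm29 −0.031, Tomm20 −0.025. With filterByExpr as filter, log2 values that changed sign were Timm29 −0.013, Tomm20 −0.0068. With the length trend removed, log2 values that changed sign were Timm10 −0.010, Timm21 −0.070, Tomm5 −0.088. With a library left out, genes whose sign changed ranged as follows: Timm17a −0.017 to 0.074, Timm17b −0.075 to 0.12, Timm21 −0.021 to 0.16, Timm29 −0.035 to 0.12, Tomm20 −0.021 to 0.071, Tomm34 −0.20 to 0.015. Settings that leave a group with 2 libraries rest on a spread pooled over both groups.

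With the replicate number as a block, 1242 genes rose and 1302 fell, and of the import genes only Timm50 changed its call (log2 fold change −0.25, adjusted p = 0.0819). Same-numbered libraries did not deviate together (correlations of −0.06, −0.06 and 0.05), so the numbers were not taken as pairs. No library correlated best with its own number. Tomm20l, with 0 counts in 5 libraries, could reach 0.252 to 0.325 FPKM at 3 counts (counting error only).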
